A study of Mus musculus with 7 samples.

Results

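The 10 genes described here, Npas4, Fos, Fosb, Junb, Egr1, Egr4, Nr4a1, Nr4a2, Arc and Ier2, are immediate early genes, which are transcribed within minutes of depolarization, calcium entry or cell stress without new protein synthesis. They were followed in pancreatic islets of mice that had lost Wnt4 in β-cells. Npas4 was chosen by its lower level in the Wnt4βKO islets in this same comparison, so its difference is given as a description with no test. The other 9 genes were chosen for their known induction together with Npas4, after earlier results of these data had been seen. The question was whether Npas4 moved alone. All 10 genes had a probe, with 13 probes in all among 56605 on the array, and every probe was kept. Of these, 11 probes of 9 genes exceeded background on 3 or more arrays and entered the test, as did 26151 probes in all.

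Islet RNA of 7 mice was measured on single-colour oligonucleotide arrays, 1 array per mouse. The 4 Wnt4βKO mice carried the Pdx1CreER transgene (a tamoxifen-inducible Cre recombinase under the Pdx1 promoter) together with Wnt4 fl/fl alleles. The 3 controls were Wnt4 fl/fl littermates without the transgene, so Cre was carried by the Wnt4βKO mice alone. The study states that it began with 4 samples of each group and left out 1 control that failed its quality tests. Mice of both genotypes were crossed to C57BL/6J and received tamoxifen by gavage at 4 to 5 weeks, and islets were taken at 7 weeks, from males per the methods. The sample titles also carry the code w11, which the labels do not explain. The Pdx1 promoter is active in β-cells and also in some other pancreatic cells, and whole islets contain other cell types. The study's methods state that islets were released with collagenase in warm medium, hand-picked and cultured in medium with serum, and the time in culture before RNA extraction is not given.

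In neurons and β-cells, membrane depolarization opens voltage-gated calcium channels. Calcium and cAMP then act through calcineurin, CaM kinases and MAP kinases on CREB, SRF and MEF2, which are already bound near the early genes. NPAS4 is a basic helix-loop-helix PAS factor that pairs with ARNT proteins and is unusual among early factors in its selectivity for calcium entry. In β-cells it is known as a depolarization-induced factor linked to the control of insulin secretion. FOS, FOSB and JUNB are AP-1 subunits, EGR1 and EGR4 are zinc finger factors, and NR4A1 and NR4A2 are orphan nuclear receptors. ARC is a cytoskeletal protein of synapses and IER2 a nuclear early response protein. Several of these genes, Fos and Egr1 among them, are also induced by tissue dissociation.

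The stretch before the transcription start of 4 genes is shown because the values below separate them: Npas4 for its difference between the genotypes, Fos and Junb for the shared variation between mice, seen with 1 of the Junb probes, and Nr4a1 for its low levels in part of the Wnt4βKO mice. Each is the 250 bases before the start in RefSeq on mouse build GRCm38.p6, written 5′ to 3′ in the direction of transcription. Capitals mark the 5 bases TGACG, the core of the cAMP response element (CRE) that CREB recognises, or their reverse complement CGTCA.
Npas4 (chr19:4989972-4990221, strand minus): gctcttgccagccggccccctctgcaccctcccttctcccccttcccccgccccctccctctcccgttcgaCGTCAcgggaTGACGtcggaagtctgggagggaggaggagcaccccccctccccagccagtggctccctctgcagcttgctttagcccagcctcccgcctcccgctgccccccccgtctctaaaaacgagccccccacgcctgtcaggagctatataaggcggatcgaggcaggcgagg
Fos (chr12:85473640-85473889, strand plus): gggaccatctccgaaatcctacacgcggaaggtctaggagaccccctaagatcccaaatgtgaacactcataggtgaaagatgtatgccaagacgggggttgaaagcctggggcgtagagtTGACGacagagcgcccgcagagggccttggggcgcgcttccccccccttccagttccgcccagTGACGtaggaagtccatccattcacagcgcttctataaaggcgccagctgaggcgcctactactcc
Junb (chr8:84978749-84978998, strand minus): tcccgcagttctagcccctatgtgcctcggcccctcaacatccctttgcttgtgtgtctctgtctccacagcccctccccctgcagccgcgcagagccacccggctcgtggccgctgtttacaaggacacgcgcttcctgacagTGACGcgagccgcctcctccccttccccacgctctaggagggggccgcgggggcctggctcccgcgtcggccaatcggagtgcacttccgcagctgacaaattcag
Nr4a1 (chr15:101266596-101266845, strand plus): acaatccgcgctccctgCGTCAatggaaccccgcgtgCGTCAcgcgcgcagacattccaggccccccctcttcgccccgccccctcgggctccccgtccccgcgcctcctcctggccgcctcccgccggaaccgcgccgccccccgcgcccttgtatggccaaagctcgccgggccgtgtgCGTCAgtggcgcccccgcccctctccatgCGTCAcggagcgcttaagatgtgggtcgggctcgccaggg
Promoters of 7 of the 10 genes could be matched, and those of Egr1, Arc and Ier2 were not available. The CRE core TGACG, searched on both strands, was found in 7 of 7, against 17.8% of 32851 mouse promoters of this length. Npas4 carried it at bases -179 to -175 on the minus strand and at bases -169 to -165 on the plus strand, counted back from the start. The full CRE TGACGTCA, which contains the core, was in 0 of 7 (1.55% of all promoters), and the CArG box that SRF binds was also in 0 of 7 (1.47%). The TATA box letters TATAA were in 4 of 7, Npas4 and Fos among them (22.8%), and the NPAS4-ARNT element TCGTG was in 3 of 7, Egr4, Fosb and Junb (13.3%). The GC box GGGCGG was in 5 of 7 (32.7%). A match is a run of letters in this window and was not tested as a binding site. Sites outside the window were not searched, so a count of 0 does not show that a gene lacks the site.

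Array signals are given as log2 of the background-corrected, quantile-normalized intensity. An offset of 50 intensity units was added during background correction, so a probe with no signal sits near 5.8 on this scale and differences of dim probes are compressed. Between 45.5% and 49.0% of non-control spots were well above background on each array, without saturation. Precision is limited by the 7 arrays. Markers of β-cells had probes above background for 10 of 10 genes. Wnt4 itself was 11.55, 11.17 and 11.80 in controls and 11.32, 10.82, 11.01 and 10.90 in Wnt4βKO islets, a difference of -0.49 ± 0.17 (SE) with overlapping groups and an adjusted limma p of 0.651. The Wnt4βKO level of Wnt4 was 71.0% of the control level, and its difference passed the unadjusted limma threshold of 0.05 but not the adjusted one. The study itself reports reduced Wnt4 transcripts in Wnt4βKO islets by qPCR. It calls that reduction an underestimate, because islet preparations also hold cells that were not targeted. It further cites immunostaining for WNT4 as evidence of the inactivation. Whether the Wnt4 probe lies in the deleted part of the gene is not stated. Over all tested probes, 4 passed an adjusted p of 0.05 (0.0153%), with 0.00765% in each direction, and 1835 an unadjusted one (7.02%, with 3.26% higher and 3.76% lower). Of the 1835, 46.5% were higher in Wnt4βKO islets, or 29.2% of 770 under median scaling. The groups did not overlap for 7.28% (3.44% higher and 3.84% lower).

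Npas4 (probe A_55_P1975215) was lower in Wnt4βKO islets. Its log2 level was 7.38, 6.93 and 7.23 in the controls and 6.17, 6.27, 6.30 and 6.44 in the Wnt4βKO mice. All 4 Wnt4βKO values lay below the lowest control, and the probe was well above background on all 7 arrays. The means were 7.18 ± 0.23 (SD, n = 3) and 6.30 ± 0.11 (n = 4), a difference of -0.88 ± 0.12 (SE), or 54.2% of the control level on this scale. Of the 26151 tested probes, 88 (0.337%) had a difference as low or lower. The scanner's own background-subtracted intensity of the probe, which carries no offset, was 87.3, 98.1 and 100 in controls and 17.6, 20.5, 25.6 and 31.5 in Wnt4βKO mice. With those intensities scaled to the 75th percentile of each array the difference was -1.96 ± 0.32, and with normexp at an offset of 0 it was -1.74 ± 0.25, so its size rests on how the background is treated. In bulk islet RNA, fewer cells that express a gene and less RNA in each cell cannot be told apart.

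**Figure D1:**
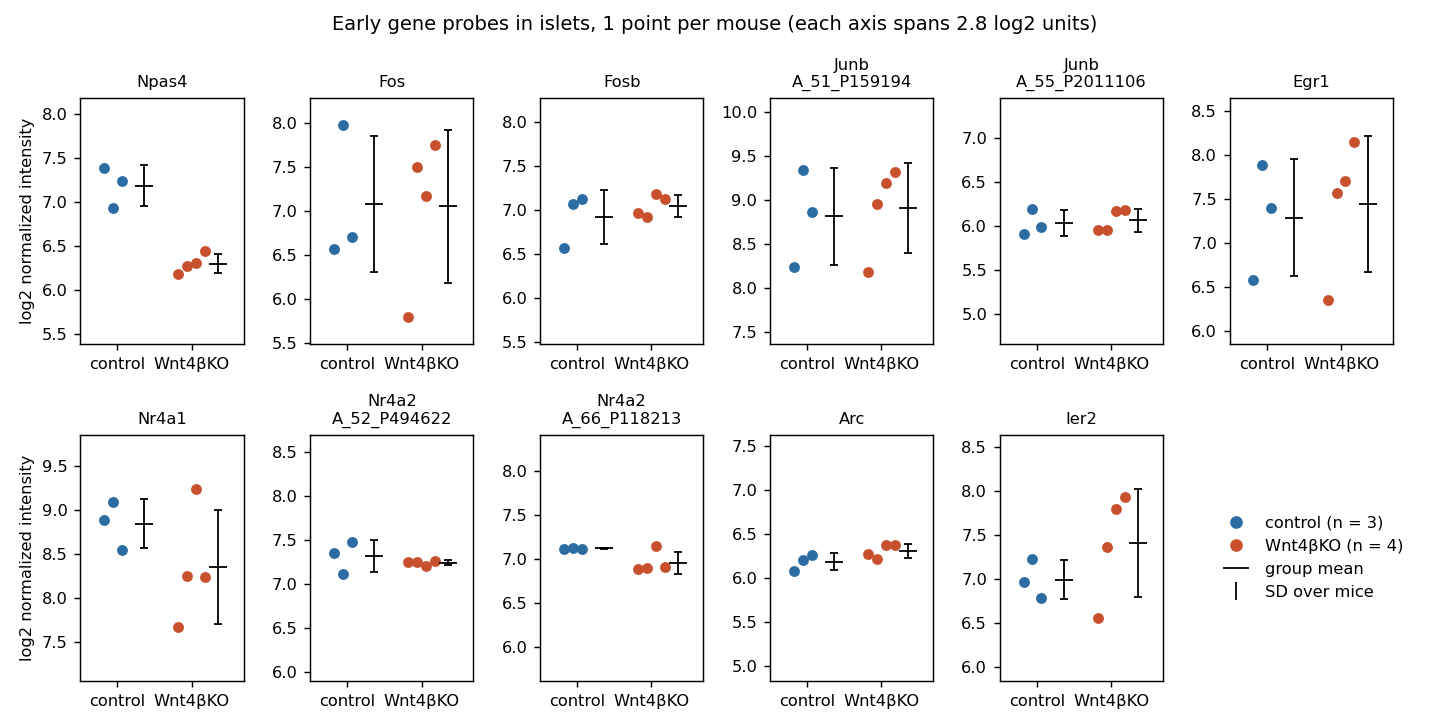
Log2 normalized intensity (vertical axis, with the same span of log2 units in each panel) of the 11 tested early gene probes, with 1 point per mouse for 3 controls (blue) and 4 Wnt4βKO mice (red), and the group mean with its SD in black. The Npas4 points of the genotypes lie apart, from 6.93 to 7.38 in controls and from 6.17 to 6.44 in Wnt4βKO mice, and those of every other probe shown overlap.

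The AP-1 subunits did not differ detectably between the genotypes. Fos (A_55_P2910184) was 6.57, 7.98 and 6.71 in controls and 5.80, 7.50, 7.17 and 7.75 in Wnt4βKO mice. Control replicate 3 was the highest array and Wnt4βKO replicate 1 the lowest, so the range within each genotype covered more than the difference between their means. That difference was -0.03 ± 0.53 (limma adjusted p = 0.997), with a 95% interval from -1.27 to 1.21 that takes in the value of Npas4. The probe was well above background on 6 of 7 arrays, the exception being Wnt4βKO replicate 1. Fosb (A_55_P2113051) was 6.57, 7.07 and 7.12 in controls and 6.97, 6.92, 7.18 and 7.12 in Wnt4βKO mice. Control replicate 2 was the lowest, and the difference was 0.13 ± 0.15 (limma adjusted p = 0.911). A second Fosb probe, A_55_P2744102, stayed near background on each of the 7 arrays and was not tested.

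Junb had a pair of tested probes. A_51_P159194 read 8.24, 9.35 and 8.86 in controls and 8.18, 8.95, 9.20 and 9.32 in Wnt4βKO mice. The lowest and the highest array again came from different genotypes, and the difference was 0.10 ± 0.34 (limma adjusted p = 0.974). A_55_P2011106, closer to background, read from 5.92 to 6.20 in controls and from 5.95 to 6.19 in Wnt4βKO mice, with a difference of 0.03 ± 0.10. Its interval ran from -0.21 to 0.28.

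Of the zinc finger factors, Egr1 (A_51_P367866) was 6.57, 7.89 and 7.40 in controls and 6.35, 7.56, 7.70 and 8.15 in Wnt4βKO mice. The groups overlapped over most of their range, with a difference of 0.15 ± 0.46 (limma adjusted p = 0.970) and an interval from -0.93 to 1.24. Egr4 (A_51_P270426) was at background throughout, well above it on 0 of 7 arrays, and has no test here.

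The orphan nuclear receptors gave differences below 0 that did not pass the test. Nr4a1 (A_51_P239654) was 8.89, 9.10 and 8.55 in controls and 7.68, 8.25, 9.25 and 8.24 in Wnt4βKO mice. In 3 of 4 Wnt4βKO mice it lay below the lowest control, while Wnt4βKO replicate 3 held the highest value of all 7 arrays. The difference was -0.49 ± 0.34 (limma adjusted p = 0.841), and -0.79 without Wnt4βKO replicate 3 (limma adjusted p = 0.565). Nr4a2 probe A_66_P118213 had the same layout, at 7.11, 7.13 and 7.11 in controls and 6.88, 6.89, 7.14 and 6.90 in Wnt4βKO mice, with a difference of -0.16 ± 0.08 (limma adjusted p = 0.763). The other Nr4a2 probe, A_52_P494622, read 7.35, 7.12 and 7.48 in controls and 7.20 to 7.26 in Wnt4βKO mice. Its difference was -0.07 ± 0.09 (limma adjusted p = 0.916), and the controls lay on both sides of the Wnt4βKO values.

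Arc and Ier2 gave differences above 0 that did not pass the test either. Ier2 (A_51_P481325) was 6.96, 7.22 and 6.78 in controls and 6.55, 7.36, 7.79 and 7.93 in Wnt4βKO mice. It lay above the highest control in 3 of 4 Wnt4βKO mice and below the lowest in Wnt4βKO replicate 1. The difference was 0.42 ± 0.32 (limma adjusted p = 0.858), and 0.69 without that array (limma adjusted p = 0.699). Arc (A_51_P503494) was 6.09, 6.21 and 6.27 in controls and 6.28, 6.23, 6.38 and 6.38 in Wnt4βKO mice, a difference of 0.12 ± 0.08 (limma adjusted p = 0.821).

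Counted together, 0 of the 10 tested probes other than Npas4 passed the adjusted limma p of 0.05, 0 passed the unadjusted one and 0 had groups that did not overlap, against 0.0153%, 7.02% and 7.28% of all tested probes. Their adjusted limma p ranged from 0.763 to 0.997. Of the 10, 4 were below 0 and 6 above, where 49.6% of all tested probes were below 0, with a median difference of 0.07 beside 0.00 for all tested probes. With Npas4 included, 1 of 11 probes (9.09%) had groups that did not overlap, a count that its choice fixes and that lies near the 7.28% of all tested probes. On the scale with the offset of 50, the intervals of Fos, Egr1 and Nr4a1 were wide enough to take in a difference of its size. That scale compresses dim probes, and the intervals do not carry over to another background treatment. With normexp at an offset of 0 Npas4 differed by -1.74 ± 0.25. Fos differed there by -0.45 ± 1.06, Egr1 by 0.17 ± 0.67 and Nr4a1 by -0.59 ± 0.38.

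**Figure D2:**
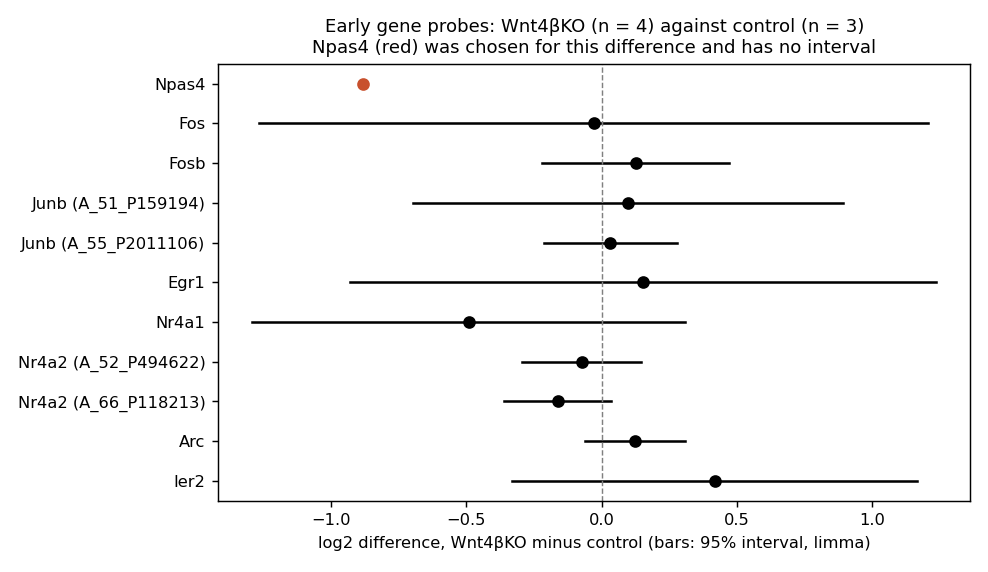
Log2 difference, Wnt4βKO minus control, of the 11 tested early gene probes (horizontal axis), with the 95% interval of the limma fit for all but Npas4, which was chosen for its difference. The 10 intervals drawn all cross 0, and those of Fos, Egr1 and Nr4a1 reach below the Npas4 value of -0.88.

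The early genes differed among themselves in how much they varied between mice of 1 genotype, a measure that does not use the difference between the genotypes. The within-group SD was 0.83 for Fos, 0.73 for Egr1, 0.53 for Nr4a1, 0.53 for Junb A_51_P159194 and 0.50 for Ier2 on the log2 scale, with a median of 0.16 over all tested probes. These 5 of the 11 lay above 0.36, a value that 2615 of the 26151 tested probes exceeded. Fos was more variable than 99.6% and Egr1 than 98.5% of the 2000 probes closest to it in mean signal. Npas4 had a within-group SD of 0.17, above 43.6% of the 2000 probes closest to it. Fosb, Arc, both Nr4a2 probes and the dim Junb probe ranged from 0.08 to 0.21.

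**Figure D3:**
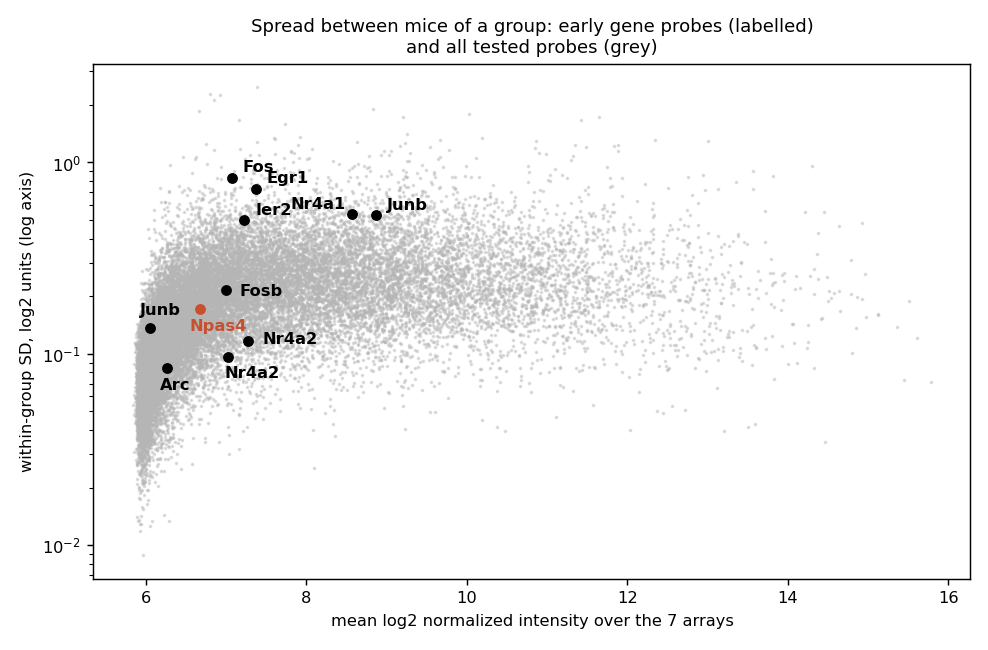
Within-group SD in log2 units (vertical axis, log scale) against the mean log2 normalized intensity over the 7 arrays, for all 26151 tested probes (grey) and the 11 early gene probes (labelled, Npas4 in red). Fos, Egr1, Ier2, Nr4a1 and 1 Junb probe sit near the upper edge of the cloud, from 0.50 to 0.83, while Npas4 at 0.17 lies inside it.

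Fos, Egr1 and 1 of the Junb probes varied together. Over the 7 arrays, Pearson's r between Junb A_51_P159194 and Egr1 was 0.986 (Spearman's rho 0.964, exact permutation p = 3.97e-04, 0.0179 after Benjamini-Hochberg adjustment over the 45 pairs of probes compared, Npas4 left out). It was 0.907 without the 2 arrays farthest from the Junb median. Fos followed both, with r of 0.914 to Egr1 (rho 0.929) and 0.901 to Junb (rho 0.964), at adjusted exact permutation p of 0.0268 and 0.0313. Nr4a1 and Nr4a2 A_66_P118213 formed another pair (r = 0.893, rho 0.964, adjusted exact permutation p = 0.0313). The adjusted exact permutation p of rho was 0.0607 for Fos and Egr1 and 0.0417 for the other 3 pairs. The remaining probes of these genes gave coefficients that did not pass. Junb A_55_P2011106 had r of 0.814 to Egr1 and 0.722 to Fos (adjusted exact permutation p of 0.151 and 0.254). Its r to the other Junb probe was 0.865 (rho 0.929, adjusted exact permutation p = 0.0714). Nr4a2 A_52_P494622 had r of -0.21 to Nr4a1 (adjusted exact permutation p = 0.814), and both Nr4a2 probes correlated at 0.091. Without the 2 farthest arrays r was 0.855 for Fos and Egr1, 0.80 for Fos and Junb A_51_P159194 and 0.877 for Nr4a1 and Nr4a2 A_66_P118213. On deviations from the genotype means, r was 0.986 for Junb A_51_P159194 and Egr1, 0.924 for Fos and Egr1, 0.909 for Fos and Junb A_51_P159194 and 0.894 for Nr4a1 and Nr4a2 A_66_P118213. Of the 45 pairs, 34 had r above 0, 10 passed an unadjusted p of 0.05 in the exact permutation test and 4 the adjusted one. The adjusted p of Fos, Junb and Egr1 with Nr4a1 lay between 0.568 and 0.616 and did not pass. The arrays stood in 2 rows of 1 slide, with 3 and 4 arrays, too few for a coefficient within a row.

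The order of the arrays shows what the coefficients rest on. Wnt4βKO replicate 1 gave the lowest value for 7 of the 11 probes, and control replicate 2 for 3 more. Control replicate 3 and Wnt4βKO replicates 3 and 4 each gave the highest value for 3 probes. Among the controls Npas4 ranked otherwise: control replicate 2, the lowest control for Fos, Junb and Egr1, was the highest array for Npas4, and control replicate 3, highest for Fos and Junb, was the lowest control for Npas4. Among the Wnt4βKO mice Npas4 did not stand out: the 4 arrays stood in the same order for Npas4, Egr1, Ier2 and both Junb probes, with replicate 1 the lowest array of all for Npas4, Egr1, Ier2, Fos and Junb A_51_P159194. Within the slide rows, Npas4 differed by -1.01 in the first (1 control, 2 Wnt4βKO mice) and by -0.78 in the second (2 and 2). Egr1 differed by -0.44 and 0.69, Junb A_51_P159194 by -0.30 and 0.47, and Fos by -0.06 and 0.19, so these genes changed sign between rows.

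**Figure D4:**
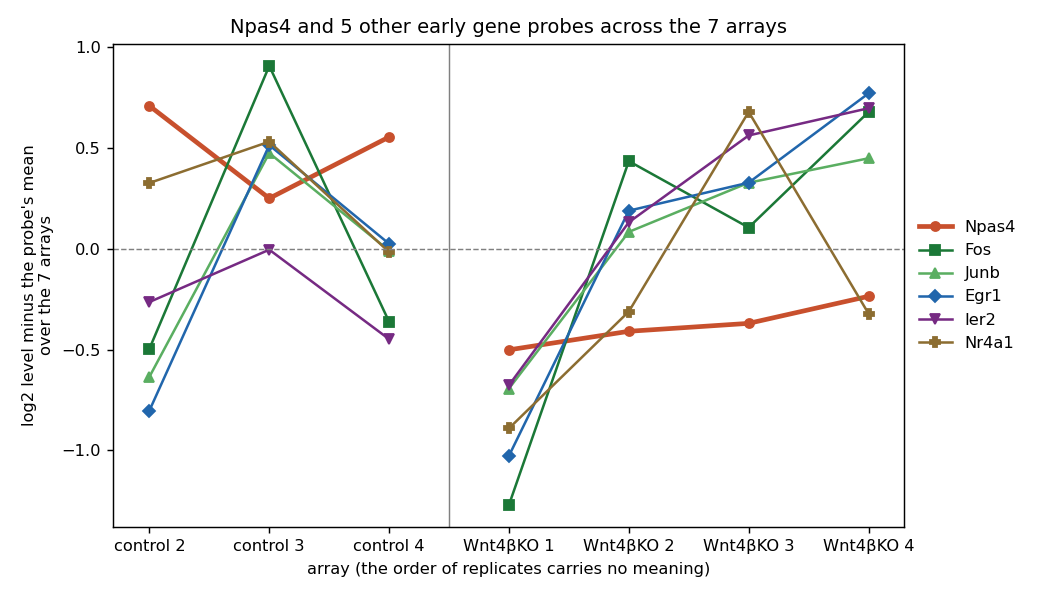
Log2 level minus the probe's own mean over the 7 arrays (vertical axis) for Npas4, Fos, Junb A_51_P159194, Egr1, Ier2 and Nr4a1 on each array, with controls to the left of the vertical line and lines joining the arrays of 1 genotype. Fos, Junb and Egr1 are lowest on control replicate 2 and Wnt4βKO replicate 1 within their genotypes, while Npas4 is above its mean on all 3 controls and below it on all 4 Wnt4βKO arrays.

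Likeness to Npas4 was measured as the root mean square difference between centred log2 profiles over the 7 arrays. Of 13648 genes, the 5 nearest were Gpa33 (0.08), a surface glycoprotein of intestinal epithelium, Gsdma (0.11), a gasdermin, Txnip (0.14), the thioredoxin-interacting protein, Cish (0.16), a feedback inhibitor of cytokine signalling, and Cks1b (0.17), a cyclin-dependent kinase subunit. Their differences were -0.87, -0.86, -0.87, -0.88 and -0.60. Being chosen for a profile that holds the difference between the genotypes, they carry no test. Of the early genes, Nr4a2 A_66_P118213 was nearest to Npas4 at 0.39, with 7.25% of tested probes closer, and Fos farthest at 0.85, with 98.8% closer.

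Related genes were read from lists built around the same pathways, with 1 probe per gene and adjusted limma p above 0.05 for each gene. Other AP-1 subunits had 7 tested genes, 2 below 0 and 5 above, and 0 passed the unadjusted threshold that 7.02% of all probes passed. The largest difference was that of Jun, -0.21 ± 0.50. Of other EGR and NR4A factors and corepressors, 0 of 3 passed, and the largest value was that of Nr4a3, 0.21 ± 0.14. Of 9 tested basic helix-loop-helix PAS relatives 0 passed, with the largest difference at Epas1, a hypoxia-inducible factor, at 0.18 ± 0.24. Arnt2, the usual NPAS4 partner in neurons, was not above background, and Arnt was among the genes tested.

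Other early response genes had 27 tested members, 14 below 0 and 13 above, with 4 lower and 1 higher past the unadjusted threshold. Of all tested probes, 3.76% were lower and 3.26% higher past it, and 7.28% had groups that did not overlap. Cited2, a transcriptional coregulator, was 10.11, 9.33 and 9.74 in controls and 8.34, 8.79, 9.01 and 8.97 in Wnt4βKO mice. Its groups did not overlap, with a difference of -0.96 ± 0.22 (limma adjusted p = 0.480). Gadd45b, a stress-response gene, differed by -0.89 ± 0.25 with overlapping groups, and Pim3, a serine/threonine kinase, by -0.45 ± 0.10 without overlap. Gadd45a, a DNA damage and stress gene, was higher by 0.24 ± 0.09. The fifth, Myc, a growth-related transcription factor named here after its value was seen, differed by -0.27 ± 0.11, while another Myc probe gave -0.07. The median of the list was -0.03.

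Upstream of the early genes, 23 genes of calcium and cAMP signalling to transcription were tested, 10 below 0 and 13 above. The 2 of these past the unadjusted threshold were higher. Nfatc1, a calcineurin-regulated factor, was higher by 0.34 ± 0.07 without overlap. Rps6ka1, the kinase RSK1, was higher by 0.40 ± 0.16, while another Rps6ka1 probe gave 0.10 ± 0.09. Of all tested probes, 7.02% passed that threshold and 7.28% had groups that did not overlap. Downstream, 0 of 10 late activity-dependent effectors passed, 8 below 0 and 2 above, with the largest difference at Vgf, a secreted neuropeptide precursor, at -0.62 ± 0.33 (limma adjusted p = 0.774).

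**Figure D5:**
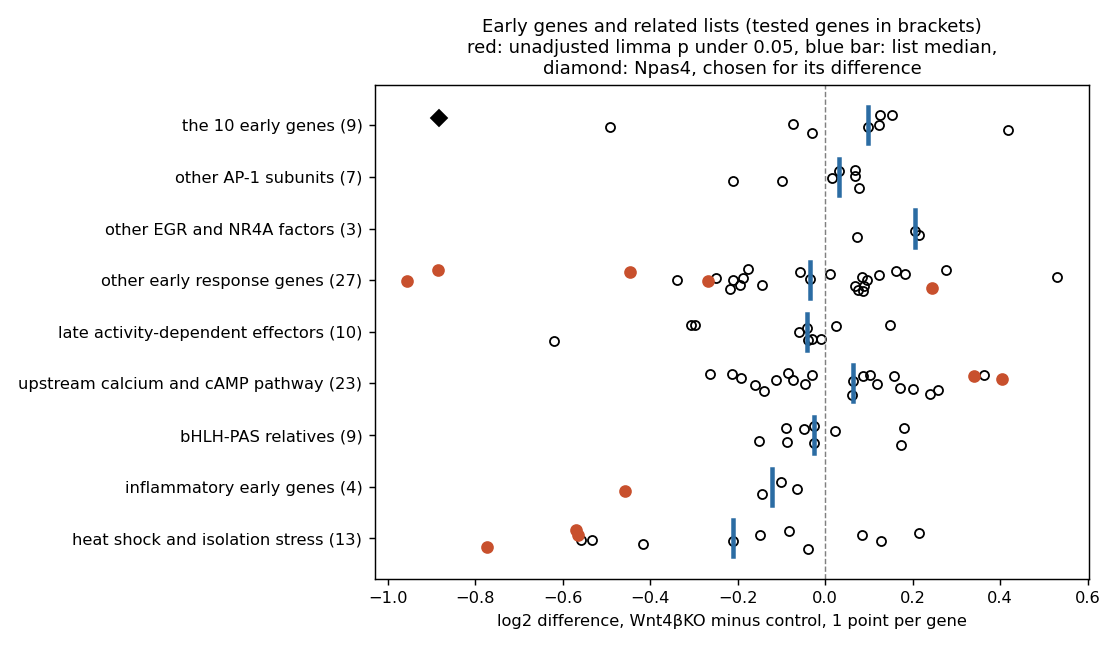
Log2 difference, Wnt4βKO minus control (horizontal axis), of each tested gene of the early genes and 8 related lists, with genes past an unadjusted limma p of 0.05 in red, the list median as a blue bar and Npas4 as a diamond. The other early response genes spread from -0.96 to 0.53 around a median of -0.03, and the heat shock list has the lowest median, -0.21.

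Heat shock genes and acinar markers also had lower mean levels in Wnt4βKO mice, and these list means were not tested. The unadjusted threshold was passed by 7.02% of all tested probes. Of 13 heat shock and isolation stress genes, 10 were below 0 and 3 passed the unadjusted threshold, all lower: Hspa1a (-0.77 ± 0.26) and Hspa1b (-0.57 ± 0.21), which encode near-identical inducible HSP70 proteins and cannot be cleanly separated, and Hsph1 (-0.57 ± 0.21), an HSP70 co-chaperone, with another Hsph1 probe at -0.79 ± 0.16. The mean log2 level over the 12 of them measured on all 7 arrays was 9.55 to 9.83 in controls and 9.26 to 9.49 in Wnt4βKO mice, without overlap. Of 10 inflammatory early genes 6 were too dim to be tested, and the 4 tested were below 0, as were 49.6% of all tested probes. Nfkbia, the NF-κB inhibitor, passed at -0.46 ± 0.10, and the other differences, from -0.14 to -0.07, did not pass. Acinar markers were below 0 for 11 of 13 genes with 3 past the unadjusted threshold, all lower (Ptf1a, Rnase1 and Cela3b), and their mean was 13.14 to 13.29 in controls and 12.32 to 13.09 in Wnt4βKO mice. All 13 acinar genes with a probe were above background. With the acinar mean as a covariate the Npas4 difference was -0.84 ± 0.19, that of Nr4a1 was 0.03 and that of Fos 0.51. The acinar means of the genotypes did not overlap, so acinar content and genotype cannot be told apart in this fit. The part of the stress genes in these results was not tested.

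Of the other cell type markers, 1 of 10 β-cell genes passed the unadjusted threshold (Ins1, higher by 0.30 ± 0.11), against 7.02% of all tested probes. Elavl4, a neuronal RNA-binding protein, also passed it at -0.45 ± 0.15, with -0.06 for each of its other probes. The count was 0 of 8 for α-, δ- and PP-cell markers, 0 of 7 for ducts, 0 of 8 for endothelium, 0 of 7 for mesenchyme and 0 of 8 for immune cells. Their part in the Npas4 difference was not tested.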

How the data were processed

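Islet RNA of 3 control and 4 Wnt4βKO mice was hybridised with 1 colour (Cy3, 50 ng RNA per the labels) to 1 array each. The authors deposited scanner output with linear spot intensities from Agilent Feature Extraction, version 12.0.1.1 per the file headers and 9.1 per the submitters' processing notes. Following the authors' methods, median spot signals were background-corrected by normexp (offset 50), and log2 values were quantile-normalized in limma 3.58.1 under R 4.3.3. Control spots were dropped after correction, flagged spots were set to missing (65 values among tested probes), and probes well above background on at least 3 arrays were tested with lmFit and eBayes, two-sided, with Benjamini-Hochberg adjustment over 26151 probes. Alternatives changed the background correction, normalization, filter, variance model, array weights, flagged spots and probe averaging, added the replicate number, slide row or acinar mean, or left out each array in turn. The software's own processed intensity was 1 of them.

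Probes were named through RefSeq accessions (GRCm38.p6): 32994 (58.3%) matched, with 22911 symbols. Probe coordinates are not given. The probe with the highest mean signal represented a gene in lists. Every early gene probe is described. From other lists, genes past the unadjusted p are named, or the gene of largest difference where none passed, at most 4 a list, and the 5 genes most like Npas4. A marker gene result is not reported here. Members and lists were chosen with earlier results of these data known. Correlations used exact permutations in scipy 1.17.1 under Python 3.11.15.

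A value table for 36693 probes, read as log2 from its range, was deposited as well. Its columns, centred by probe, correlated with their own scanner arrays at -0.21 to 0.15 over 15376 shared probes, with centring and direction unknown, and it was not used. Labels name a separate mouse for each array, and litters are not given. The pipeline was tested on simulated data for the Wnt4βKO against control comparison over 26102 probes: of 50 probes changed at each size, 22%, 62%, 88% and 96% were called at log2 changes of 0.5, 1, 1.5 and 2, with 5 false calls among 139.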

Additional observations from a re-analysis of the deposited data

Results flagged for a closer look

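Both Nr4a2 probes had 1 Wnt4βKO array set apart from the other 3, relative to the range of the 4. For A_66_P118213, Wnt4βKO replicate 3 read 7.14 while the others lay between 6.88 and 6.90, a gap of 0.906 of the range of the 4 arrays. For A_52_P494622 the same array read 7.20 while the others lay between 7.25 and 7.26, a gap of 0.889 of the range. That range was narrow beside the controls of this probe, which ran from 7.12 to 7.48. The critical value for 4 arrays is 0.83, and chance passes it in about 1 in 20 groups. It was passed by 2 of 11 probes examined, and those 2 belong to 1 gene. The array was high for one probe and low for the other.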

How the results depend on the processing

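Npas4 was lower in Wnt4βKO islets under all 21 alternatives, from -0.80 (without control replicate 2) to -0.98 (without control replicate 3) over the left-out arrays. Its size moved with the background treatment, to -1.33 without background correction, -1.74 with normexp at an offset of 0 and -1.96 on processed signals. The count of early gene probes past the unadjusted p of 0.05 ran from 1 to 3 over the left-out arrays, always with Npas4, which was chosen for this difference and is no support: Ier2 joined without Wnt4βKO replicate 1, and Nr4a1 and Nr4a2 A_66_P118213 joined without Wnt4βKO replicate 3. None of the 10 other probes passed the adjusted limma p of 0.05 under any alternative run.

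No pairing by replicate number was visible: deviations of same-numbered arrays correlated at -0.13, 0.23 and -0.01. All pairings of a control with a Wnt4βKO array ran from -0.31 to 0.23. These coefficients cannot show whether same-numbered mice were littermates or were handled together. With the replicate block, 2 early gene probes passed the unadjusted p (Ier2 at 0.70, and Npas4, counted with the same reserve), Fos became 0.39, Npas4 was -0.84, and 2 probes of all tested passed the adjusted p. The block changed no other call among the early genes.

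Over all probes, the adjusted count of 4 became 7 on processed signals, 2 with the acinar mean as a covariate and 2 to 5 over the left-out arrays. The unadjusted count of 1835 became 770 under median scaling, 2921 without the filter on dim probes and 623 with the acinar covariate. Small differences changed sign. Fos became 0.12 with array weights, 0.090 with the slide row as a block, 0.51 with the acinar covariate, -0.83 on processed signals, and ran from -0.29 to 0.41 over the left-out arrays. Over the left-out arrays Fosb ran from -0.050 to 0.23, Junb A_51_P159194 from -0.19 to 0.36, Egr1 from -0.21 to 0.51, Nr4a2 A_52_P494622 from -0.17 to 0.0073 and Junb A_55_P2011106 from -0.028 to 0.11. The last also became -0.0043 with cyclic loess and -0.014 under median scaling. Nr4a1 became 0.031 with the acinar covariate, whose values did not overlap between the genotypes. The cause of these changes was not tested. With 7 arrays, the intervals of Fos, Egr1 and Nr4a1 on the scale with the offset take in the Npas4 difference. Their within-group SDs were 0.83, 0.73 and 0.53, and each had a higher mean signal than Npas4. Several other early gene probes were dim.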
